A study of Mus musculus with 12 samples.

Results

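The genes described here are 35 that make cholesterol and fatty acids or control their synthesis, out of 18194 genes tested on the arrays. They were taken from a fixed list of names and fall into 16 enzymes of sterol synthesis, 5 regulators of the pathway, 11 enzymes of fatty acid synthesis, elongation and desaturation, 2 acyltransferases of glycerolipid synthesis and 1 sterol transport protein. All 35 had a probe set of their own. Where several probe sets stood for a gene the brightest on average was read, and no filter on low signal was applied.

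Cholesterol is built from acetyl-CoA through mevalonate, squalene and lanosterol, and fatty acids are built from acetyl-CoA through malonyl-CoA and palmitate. When sterols in the endoplasmic reticulum are low, SCAP escorts the membrane-bound SREBP transcription factors (genes Srebf1 and Srebf2) to the Golgi, where they are cleaved, and the released part switches on the enzymes of both pathways; INSIG proteins hold SCAP back when sterols are abundant. In lung, alveolar type 2 epithelial cells use fatty acids to make the phospholipids of surfactant, the film that keeps alveoli open.

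RNA of whole lungs from C57BL/6 mice was measured on 12 arrays, 3 for each of 4 groups. These were FIZZ2 knockout lungs given bleomycin, FIZZ2 knockout lungs given saline, wild type lungs given bleomycin and wild type lungs given saline. Bleomycin is a DNA-damaging drug used in mice to injure and scar the lung, and saline is its vehicle. All mice received the agent through the trachea, and all lungs were flushed with phosphate-buffered saline and taken on day 21. FIZZ2 is RELM-beta, a secreted resistin-like protein encoded by Retnlb. How the allele was made, the age and sex of the mice, and whether the replicates are separate animals are not given in the sources used here. The p-values therefore measure the spread between these samples, which may be technical, and 3 arrays a group limit the precision.

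Values are log2 signals as the authors deposited them, so a difference of 1 is a doubling. Array medians lay between 5.58 and 5.68, and arrays of 1 group correlated at 0.988 to 0.997 across probe sets. Retnlb was dim, at a mean of 3.63 after bleomycin in knockout lungs and 3.97 after bleomycin in wild type lungs, and the difference of -0.35 did not pass (limma adjusted p = 0.0502), which leaves the genotype labels unchecked by its level. All 6 lung identity markers and all 9 measured markers of alveolar type 2 cells had means of at least 5. The first wild type bleomycin array stood apart: its summed linear signal of the type 2 cell markers was 43857, below every other array. The first knockout bleomycin array had the highest mean of the sterol enzymes. The main results that rest on these 2 arrays are also given without them. When arrays were weighted, the second wild type saline array had the lowest weight (0.34), below the first wild type bleomycin array (0.41).

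Promoter sequences are shown for the genes on which the results turn. SREBP proteins bind sterol regulatory elements, usually beside CCAAT boxes bound by NF-Y. Windows from 250 bases before to 50 bases after a transcription start, from RefSeq on build GRCm38.p6, were found for 27 of the 35 genes. Mvd and Cyp51 were the sterol enzymes that passed the test after bleomycin in both genotypes, Insig1 and Srebf2 are regulators, Gpam differed between the genotypes in its response, and Hmgcs1 holds the sterol regulatory element core. The windows are chr13:119690101-119690400 (plus strand) for Hmgcs1, chr8:122443373-122443672 (minus strand) for Mvd, chr5:4104648-4104947 (minus strand) for Cyp51, chr5:28071162-28071461 (plus strand) for Insig1, chr15:82147019-82147318 (plus strand) for Srebf2 and chr19:55127189-55127488 (minus strand) for Gpam. Gpam has a second window, chr19:55099428-55099727 (minus strand), which held no motif match and is not printed. Each printed window is written 5′ to 3′ along the gene, with motif matches in capitals.
Hmgcs1: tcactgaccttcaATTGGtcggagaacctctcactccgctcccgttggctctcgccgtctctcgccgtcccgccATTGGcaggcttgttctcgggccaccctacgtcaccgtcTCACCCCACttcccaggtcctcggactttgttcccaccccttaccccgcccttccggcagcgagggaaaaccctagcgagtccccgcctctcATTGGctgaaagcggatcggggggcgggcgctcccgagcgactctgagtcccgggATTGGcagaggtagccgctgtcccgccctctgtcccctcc
Mvd: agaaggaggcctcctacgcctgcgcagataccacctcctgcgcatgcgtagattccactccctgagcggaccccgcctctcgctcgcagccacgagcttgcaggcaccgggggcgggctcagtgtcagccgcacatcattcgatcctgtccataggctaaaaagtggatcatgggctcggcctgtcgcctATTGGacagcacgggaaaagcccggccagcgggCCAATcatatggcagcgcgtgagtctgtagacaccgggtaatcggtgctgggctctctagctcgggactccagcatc
Cyp51: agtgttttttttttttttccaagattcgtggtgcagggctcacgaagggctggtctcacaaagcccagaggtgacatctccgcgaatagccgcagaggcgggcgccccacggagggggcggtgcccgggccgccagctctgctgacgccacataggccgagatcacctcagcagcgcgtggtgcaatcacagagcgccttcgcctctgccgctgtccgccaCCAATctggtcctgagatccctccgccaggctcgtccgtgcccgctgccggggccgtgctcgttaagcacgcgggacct
Insig1: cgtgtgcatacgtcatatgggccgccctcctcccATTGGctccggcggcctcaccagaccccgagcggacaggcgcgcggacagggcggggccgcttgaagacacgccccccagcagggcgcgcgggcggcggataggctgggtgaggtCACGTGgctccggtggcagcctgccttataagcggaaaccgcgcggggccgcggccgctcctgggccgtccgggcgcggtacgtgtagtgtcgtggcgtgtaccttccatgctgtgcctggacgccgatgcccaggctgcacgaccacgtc
Srebf2: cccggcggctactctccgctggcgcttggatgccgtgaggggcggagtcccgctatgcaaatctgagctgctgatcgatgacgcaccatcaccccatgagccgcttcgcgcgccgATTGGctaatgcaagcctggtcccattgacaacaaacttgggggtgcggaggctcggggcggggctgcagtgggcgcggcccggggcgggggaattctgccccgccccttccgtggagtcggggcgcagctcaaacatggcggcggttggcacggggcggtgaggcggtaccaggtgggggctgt
Gpam: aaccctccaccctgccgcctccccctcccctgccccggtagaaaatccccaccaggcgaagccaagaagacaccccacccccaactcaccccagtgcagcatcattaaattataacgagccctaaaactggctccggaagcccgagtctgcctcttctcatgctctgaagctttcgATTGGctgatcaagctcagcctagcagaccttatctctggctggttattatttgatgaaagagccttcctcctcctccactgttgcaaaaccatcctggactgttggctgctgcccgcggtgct
The letters searched were TCACNCCAC (the core of a sterol regulatory element), CCAAT (read as ATTGG on the other strand) and CACGTG (an E-box), on both strands and without overlap between these motifs in the windows printed. The sterol regulatory element core was found in 1 of the 27 genes, Hmgcs1, where it lies 137 bases before the start, and in 1.44% of all 27025 genes in the table. A CCAAT match was found in 23 of the 27 genes (85.2%) and in 41.1% of all genes. All 13 sterol enzymes with a window had a CCAAT match, against 5 of 8 fatty acid enzymes with a window. Counted by window, since some genes have several starts, 63.2% of 38 windows had a CCAAT match, against 37.4% of all 32851. An E-box was found in 5 of the 27 genes (18.5%) and in 8.09% of all genes. A match describes the letters in the window only and was not tested as a binding site.

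**Figure D1:**
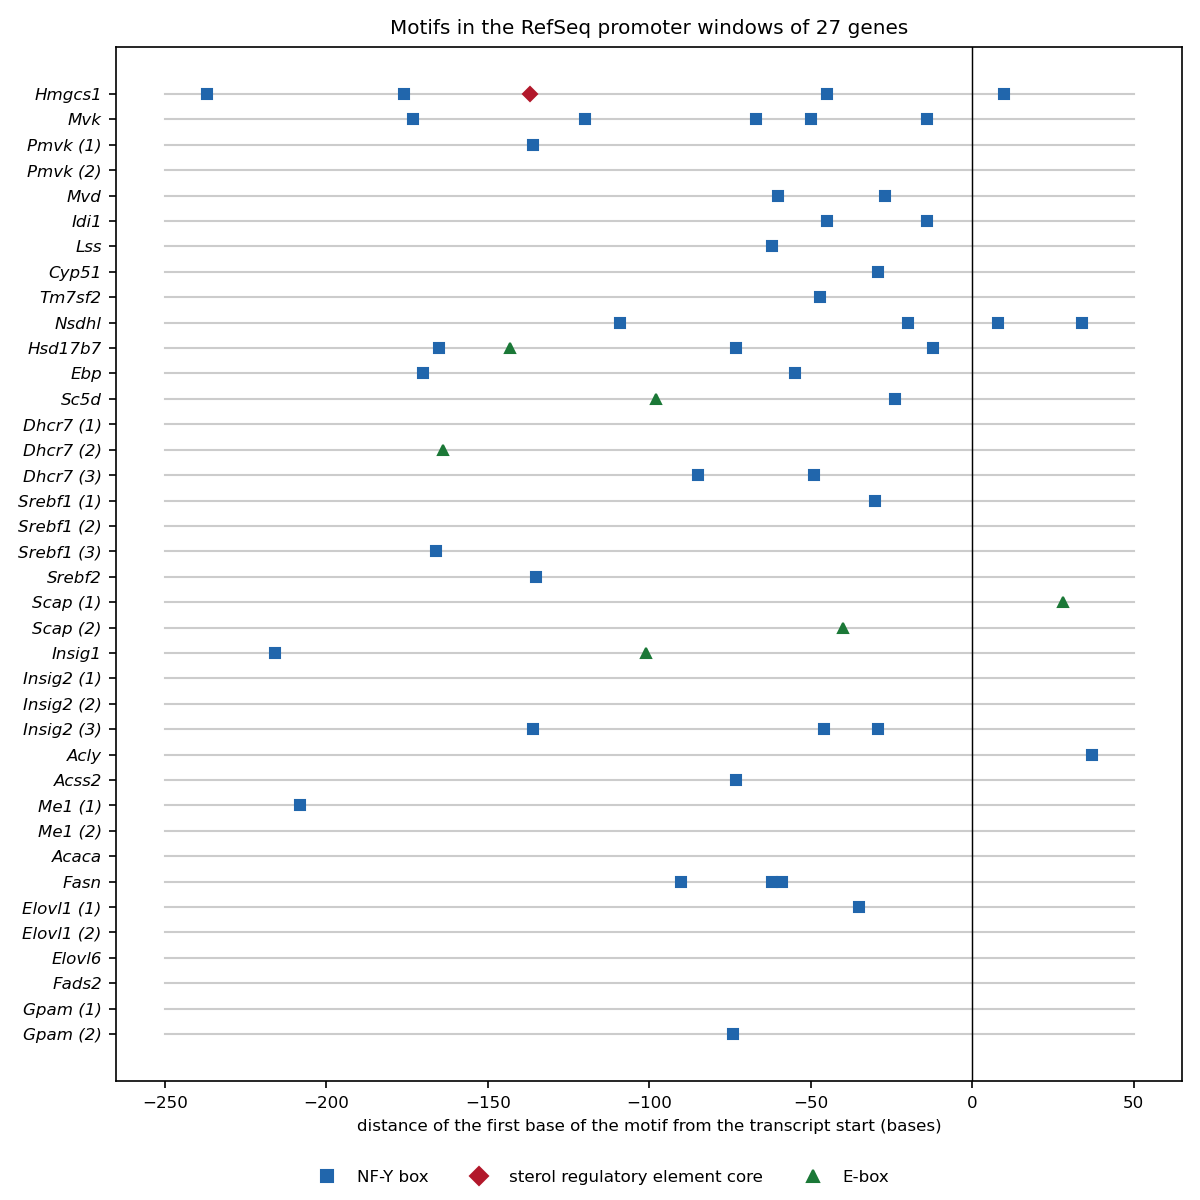
Position of the 3 motifs in the 38 promoter windows of the 27 genes, in bases from the transcription start (vertical line), with 1 grey line per window and numbers in brackets for genes with several starts. Blue squares are CCAAT matches (the NF-Y box), the red diamond the sterol regulatory element core at 137 bases before the start of Hmgcs1, and green triangles E-boxes; every sterol enzyme shown has a blue square in at least 1 window.

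The 35 genes were well expressed in lung. Their means over the 12 arrays ran from 6.50 for Mvd to 12.82 for Scd1, which places them between the 45.0 and 99.7 percentiles of all genes. Scd1, a desaturase that makes oleate, and Hmgcs1, the enzyme that forms the precursor of mevalonate, had the highest signals of the fatty acid and sterol branches. Signals of different probe sets are not on a common scale, so this order is only a rough guide.

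In wild type lungs, bleomycin moved genes of the pathway in both directions. 5 sterol enzymes rose, while the transcription factors Srebf1 and Srebf2, the retention protein Insig1, the acetate-activating enzyme Acss2 and the acyltransferases Gpam and Dgat2 fell. Of the 35 genes, 5 were called higher (14.3%, against 13.3% of all genes) and 6 lower (17.1%, against 14.4% of all genes), with limma and a Benjamini-Hochberg adjusted p under 0.05. The shares were near the background, so the count of changed genes does not set the group apart. The median change was -0.09 over the 35 genes and -0.04 over all genes.

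**Figure D2:**
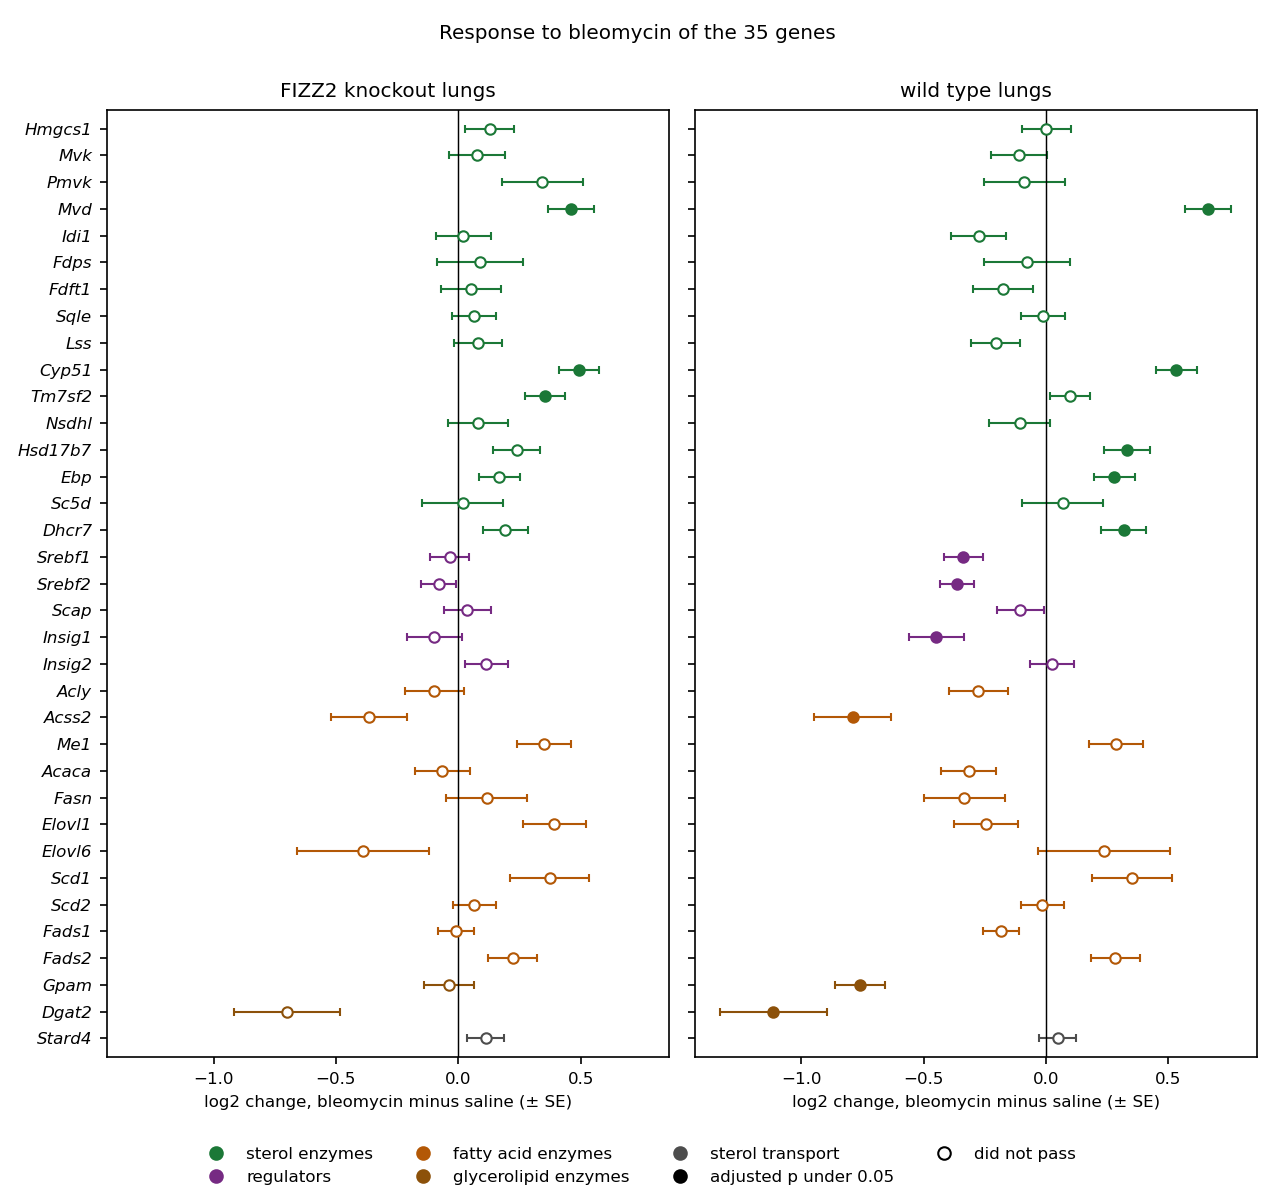
Log2 change (bleomycin minus saline, ± SE) of each of the 35 genes in knockout and in wild type lungs, coloured by branch, with filled points for an adjusted p under 0.05. In knockout Cyp51, Mvd and Tm7sf2 are filled, and in wild type 5 filled sterol enzymes lie to the right of 0 and Gpam, Dgat2, Acss2, Srebf1, Srebf2 and Insig1 to the left.

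Mvd decarboxylates mevalonate diphosphate to isopentenyl diphosphate, the building block of all sterols. It read 6.97, 6.95 and 6.83 in wild type bleomycin lungs, against 6.20, 6.41 and 6.15 in wild type saline lungs. The groups did not overlap, and the change of 0.66 ± 0.09 (SE, 1.58-fold) passed (adjusted p = 0.000217). Cyp51 removes a methyl group from lanosterol, the first sterol of the pathway. It read 7.91, 8.12 and 8.04 in wild type bleomycin lungs, against 7.34, 7.56 and 7.56 in wild type saline lungs. These groups also lay apart, with a change of 0.53 ± 0.08 (1.45-fold, adjusted p = 0.000388).

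3 further enzymes that work after lanosterol rose by smaller amounts. Hsd17b7, a sterol ketone reductase, had 8.19, 8.04 and 7.92 in wild type bleomycin lungs, against 7.62, 7.88 and 7.65 in wild type saline lungs (0.33, adjusted p = 0.0197). Dhcr7, which makes the last reduction to cholesterol, had 7.23, 7.26 and 7.49 in wild type bleomycin lungs, against 7.01, 7.05 and 6.98 in wild type saline lungs (0.32, adjusted p = 0.0206). Ebp, a sterol isomerase, had 9.54, 9.50 and 9.61 in wild type bleomycin lungs, against 9.17, 9.28 and 9.36 in wild type saline lungs (0.28, adjusted p = 0.0218). In each of these 3 genes every bleomycin array lay above every saline array, but each call depended on single arrays. Without the first wild type saline array the adjusted p was 0.0809 for Hsd17b7, 0.0573 for Dhcr7 and 0.094 for Ebp. Without the third wild type saline array Hsd17b7 (0.062) and Dhcr7 (0.0544) did not pass, without the first wild type bleomycin array Hsd17b7 (0.0796) did not, and without the third wild type bleomycin array Dhcr7 (0.0945) and Ebp (0.0785) did not. The lowest adjusted p over the alternatives was 0.00148 for Hsd17b7, 0.00304 for Dhcr7 and 0.00128 for Ebp.

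The other 11 sterol enzymes (Hmgcs1, the mevalonate kinases Mvk and Pmvk, Idi1, Fdps, Fdft1, Sqle, Lss, Tm7sf2, Nsdhl and Sc5d) did not pass, with changes between -0.28 and 0.10. Hmgcs1, at the entry to the pathway, read 10.49, 10.72 and 10.66 in wild type bleomycin lungs, against 10.53, 10.79 and 10.54 in wild type saline lungs. Its change was 0.00, with a 95% interval of -0.22 to 0.22. Sqle, the squalene epoxidase that commits carbon to sterols, read 8.67, 8.88 and 8.94 in wild type bleomycin lungs, against 8.81, 8.83 and 8.88 in wild type saline lungs. The arrays overlapped, with a change of -0.01 (interval -0.21 to 0.18). Divided by their place in the pathway, a division made after the values were seen, 4 of 7 enzymes that act after lanosterol rose and 1 of 9 up to lanosterol did. The difference between these shares was not tested. Although 5 of 16 sterol enzymes rose and none fell on the probe sets used, the branch median was -0.01. With the probe sets of each gene averaged, Lss and Sc5d were called lower in wild type.

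The regulators moved the other way. Srebf2, the transcription factor that mainly drives sterol genes, read 8.65, 8.69 and 8.74 in wild type bleomycin lungs, against 9.06, 9.09 and 9.01 in wild type saline lungs. Every bleomycin array was lower, and the change was -0.36 ± 0.07 (adjusted p = 0.002). Srebf1, which mainly drives fatty acid genes, read 9.27, 9.14 and 9.19 in wild type bleomycin lungs, against 9.55, 9.56 and 9.50 in wild type saline lungs. It fell by 0.34 ± 0.08 (adjusted p = 0.00634) with no overlap. Insig1, itself a well-known SREBP target, read 7.27, 7.65 and 7.60 in wild type bleomycin lungs, against 7.83, 8.10 and 7.93 in wild type saline lungs, and it fell by 0.45 ± 0.11 (adjusted p = 0.00894). Scap and Insig2 did not pass, at -0.11 and 0.02. The fall of Srebf2 rests on its brighter probe set: with the mean of both probe sets the adjusted p was 0.397, the highest over the alternatives, and the lowest was 0.000346.

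Among fatty acid enzymes, Acss2, which makes acetyl-CoA from acetate, had 7.20, 7.83 and 7.62 in wild type bleomycin lungs, against 8.42, 8.23 and 8.38 in wild type saline lungs. The groups did not overlap, and the change was -0.79 ± 0.16 (0.578-fold, adjusted p = 0.00211). It was the only one of the 11 fatty acid enzymes that passed in wild type in the main fit. Acaca, which makes malonyl-CoA and sets the pace of fatty acid synthesis, had 8.24, 8.54 and 8.25 in wild type bleomycin lungs, against 8.77, 8.75 and 8.46 in wild type saline lungs. These arrays overlapped and the change of -0.32 did not pass (adjusted p = 0.0529). Acaca did pass as lower under some alternatives, among them a filter at a mean of 5 and array weights. Fasn, the fatty acid synthase, had 10.24, 11.02 and 10.88 in wild type bleomycin lungs, against 11.06, 11.19 and 10.89 in wild type saline lungs (-0.33, adjusted p = 0.155). The first of the bleomycin arrays was the low one. Scd1 had 12.44, 13.16 and 13.01 in wild type bleomycin lungs, against 12.70, 12.46 and 12.40 in wild type saline lungs, with the 2 other bleomycin arrays high and a change of 0.35 that did not pass (adjusted p = 0.129). The NADPH-supplying Me1 (0.29, adjusted p = 0.0712) and the desaturase Fads2 (0.28, adjusted p = 0.0532) also had positive changes that did not pass, so members of the branch pointed in both directions. Me1 and Fads2 passed as higher with their probe sets averaged, and Fads2 also with the filter at a mean of 5. Acly, which makes acetyl-CoA from citrate, changed by -0.28 (adjusted p = 0.107) with every bleomycin array lower, and Scd2, a second desaturase, changed by -0.02 (interval -0.21 to 0.17). Elovl1 (-0.24), Elovl6 (0.24) and Fads1 (-0.18) did not pass either.

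Both glycerolipid enzymes fell in wild type lungs. Gpam, the mitochondrial acyltransferase that starts glycerolipid synthesis, had 9.999, 10.30 and 10.15 in wild type bleomycin lungs, against 10.90, 11.11 and 10.73 in wild type saline lungs. It fell by 0.76 ± 0.10 (0.590-fold, adjusted p = 0.000134), with the groups apart, but with its 2 probe sets averaged the change was -0.30 and did not pass (adjusted p = 0.211, lowest over the alternatives 9.91e-06). Dgat2, which adds the last acyl chain of triglycerides, had 6.82, 7.15 and 6.91 in wild type bleomycin lungs, against 8.13, 8.06 and 8.03 in wild type saline lungs. This was the largest fall of the 35 genes, 1.11 ± 0.22 (0.462-fold, adjusted p = 0.00197). In whole-lung RNA, fewer cells of a type and less RNA per cell cannot be told apart. Stard4, the sterol transport protein, did not pass on the probe set used (0.05). Another set of Stard4 (mean 8.45) rose by 0.35 and passed (limma adjusted p = 0.0161 over all probe sets). With its probe sets averaged Stard4 was called higher.

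Cell type markers moved with these genes in wild type lungs, where 13.3% of all genes rose and 14.4% fell. Of 9 measured alveolar type 2 markers, 5 fell and none rose, and their summed linear signal ranged from 43857 to 62729.7 in wild type bleomycin lungs and from 69693 to 71328 in wild type saline lungs. Of 10 macrophage markers 8 rose, with sums of 29043 to 30397 in wild type bleomycin lungs and 17587.5 to 18319 in wild type saline lungs. Of 9 measured adipocyte markers 1 fell, Cidec, and the sums were 1182 to 1468 in wild type bleomycin lungs and 1212 to 4407 in wild type saline lungs. The adipocyte markers Lep and Ucp1 were dim, with means under 5. All 6 cardiac muscle markers fell, with sums of 1787 to 2650 in wild type bleomycin lungs and 6215 to 9129 in wild type saline lungs, and 3 of 6 lung identity markers fell. The part of these cell types in the changes above was not tested. Without the first wild type bleomycin array, 6 of the 35 genes were called higher and 6 lower. Over all 18194 genes, fewer were then called in each direction than with all 12 arrays, to which the shares above belong. The higher ones of the 35 were then 4 sterol enzymes and 2 fatty acid enzymes, Scd1 (0.57, adjusted p = 0.0062) and Me1 (0.41, adjusted p = 0.00989).

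In FIZZ2 knockout lungs, 3 sterol enzymes rose after bleomycin and no gene fell. The share called higher was 8.57% of the 35 genes, against 1.98% of all genes. The share called lower was 0%, against 1.29% of all genes. An unadjusted limma p under 0.05 in either direction was found for 10 of the 35 genes and for 3267 of all 18194. Cyp51 read 8.01, 8.05 and 7.999 in knockout bleomycin lungs, against 7.56, 7.49 and 7.54 in knockout saline lungs. It rose by 0.49 ± 0.08 (1.41-fold, adjusted p = 0.00699) with the groups well apart, but with its probe sets averaged the change was 0.27 and did not pass (adjusted p = 0.0505, lowest over the alternatives 0.00263). Mvd read 6.62, 6.71 and 6.58 in knockout bleomycin lungs, against 6.21, 6.01 and 6.31 in knockout saline lungs, again without overlap, and rose by 0.46 ± 0.09 (1.38-fold, adjusted p = 0.0214).

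Tm7sf2, a sterol reductase that acts just after Cyp51, read 7.22, 7.25 and 7.17 in knockout bleomycin lungs, against 6.82, 6.84 and 6.92 in knockout saline lungs. It rose by 0.35 ± 0.08 (1.28-fold, adjusted p = 0.0331), but lost its call without any 1 of the 6 knockout arrays (adjusted p 0.00952 to 0.13 over the alternatives). Mvd lost its call without the first or second knockout saline array or the second knockout bleomycin array (0.00806 to 0.105 over the alternatives). All 16 sterol enzymes had a change above 0, with a median of 0.11, while the median of all genes was 0.01. Without the first knockout bleomycin array 10 of the 16 had a change above 0, the median was 0.07 and 2 passed, so the shared direction rested on that array.

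The regulators and the fatty acid and glycerolipid enzymes did not pass in knockout lungs. Srebf1 read 9.64, 9.64 and 9.51 in knockout bleomycin lungs, against 9.64, 9.75 and 9.51 in knockout saline lungs (-0.04, interval -0.21 to 0.14). Srebf2 read 9.06, 8.87 and 8.996 in knockout bleomycin lungs, against 9.05, 9.02 and 9.09 in knockout saline lungs (-0.08, interval -0.23 to 0.07). Insig1 read 8.13, 8.05 and 8.01 in knockout bleomycin lungs, against 8.19, 8.29 and 8.01 in knockout saline lungs (-0.10, interval -0.34 to 0.14). In these 3 genes the groups overlapped. Gpam read 10.79, 10.78 and 10.66 in knockout bleomycin lungs, against 10.75, 10.79 and 10.81 in knockout saline lungs, a change of -0.04 (interval -0.26 to 0.18). Acss2 read 8.32, 7.85 and 8.34 in knockout bleomycin lungs, against 8.495, 8.64 and 8.46 in knockout saline lungs, lower on every array but not past the test (-0.36, adjusted p = 0.237). Scd1 read 12.97, 13.19 and 13.24 in knockout bleomycin lungs, against 12.75, 12.93 and 12.60 in knockout saline lungs, higher on every array and not past the test either (0.37, adjusted p = 0.246). Me1 (0.35, adjusted p = 0.113) and Elovl1 (0.39, adjusted p = 0.127) were also higher on every knockout bleomycin array than on any knockout saline array. Leaving out the first wild type bleomycin array keeps these changes and alters only the shared spread, and both then passed (adjusted p = 0.0471 for Me1 and 0.0457 for Elovl1). Both also passed with array weights, and Elovl1 passed with only the knockout groups in the fit.

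Dgat2 was uneven in knockout lungs. It read 7.32, 7.07 and 8.13 in knockout bleomycin lungs, against 8.42, 8.32 and 7.89 in knockout saline lungs, so the third bleomycin array overlapped the saline arrays and the change of -0.70 did not pass (adjusted p = 0.106). Without that array the change was -1.01 and passed (adjusted p = 0.00818). Elovl6, which elongates palmitate, read 6.50, 6.72 and 7.57 in knockout bleomycin lungs, against 7.55, 7.56 and 6.86 in knockout saline lungs. The third array of each group was the odd one in both genes. The summed linear signal of the adipocyte markers was 764, 1034 and 4090.1 on the same knockout bleomycin arrays, against 5491, 6249 and 2841 on the knockout saline arrays. The 6 cardiac muscle markers summed to 1933, 3735 and 7671 on the knockout bleomycin arrays, with the third again high, against 6497, 10544 and 9729 on the knockout saline arrays. Of the 9 adipocyte markers 1 was called lower, Lipe, and of the 6 cardiac markers none was. All 9 adipocyte markers had a change below 0 (median -1.16). An unadjusted limma p under 0.05 was found for 8 of the 9 adipocyte markers and for all 6 cardiac markers. The part of either tissue in the Dgat2 and Elovl6 values was not tested. In the same lungs 8 of 10 macrophage markers rose (80%, against 1.98% of all genes). None of the 9 alveolar type 2 markers passed (3 at an unadjusted limma p under 0.05), with sums of 71939 to 77058 in knockout bleomycin lungs and 66181 to 69012 in knockout saline lungs. 3 of these 9 passed as higher without the first wild type bleomycin array, when 488 of all 18194 genes did.

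**Figure D3:**
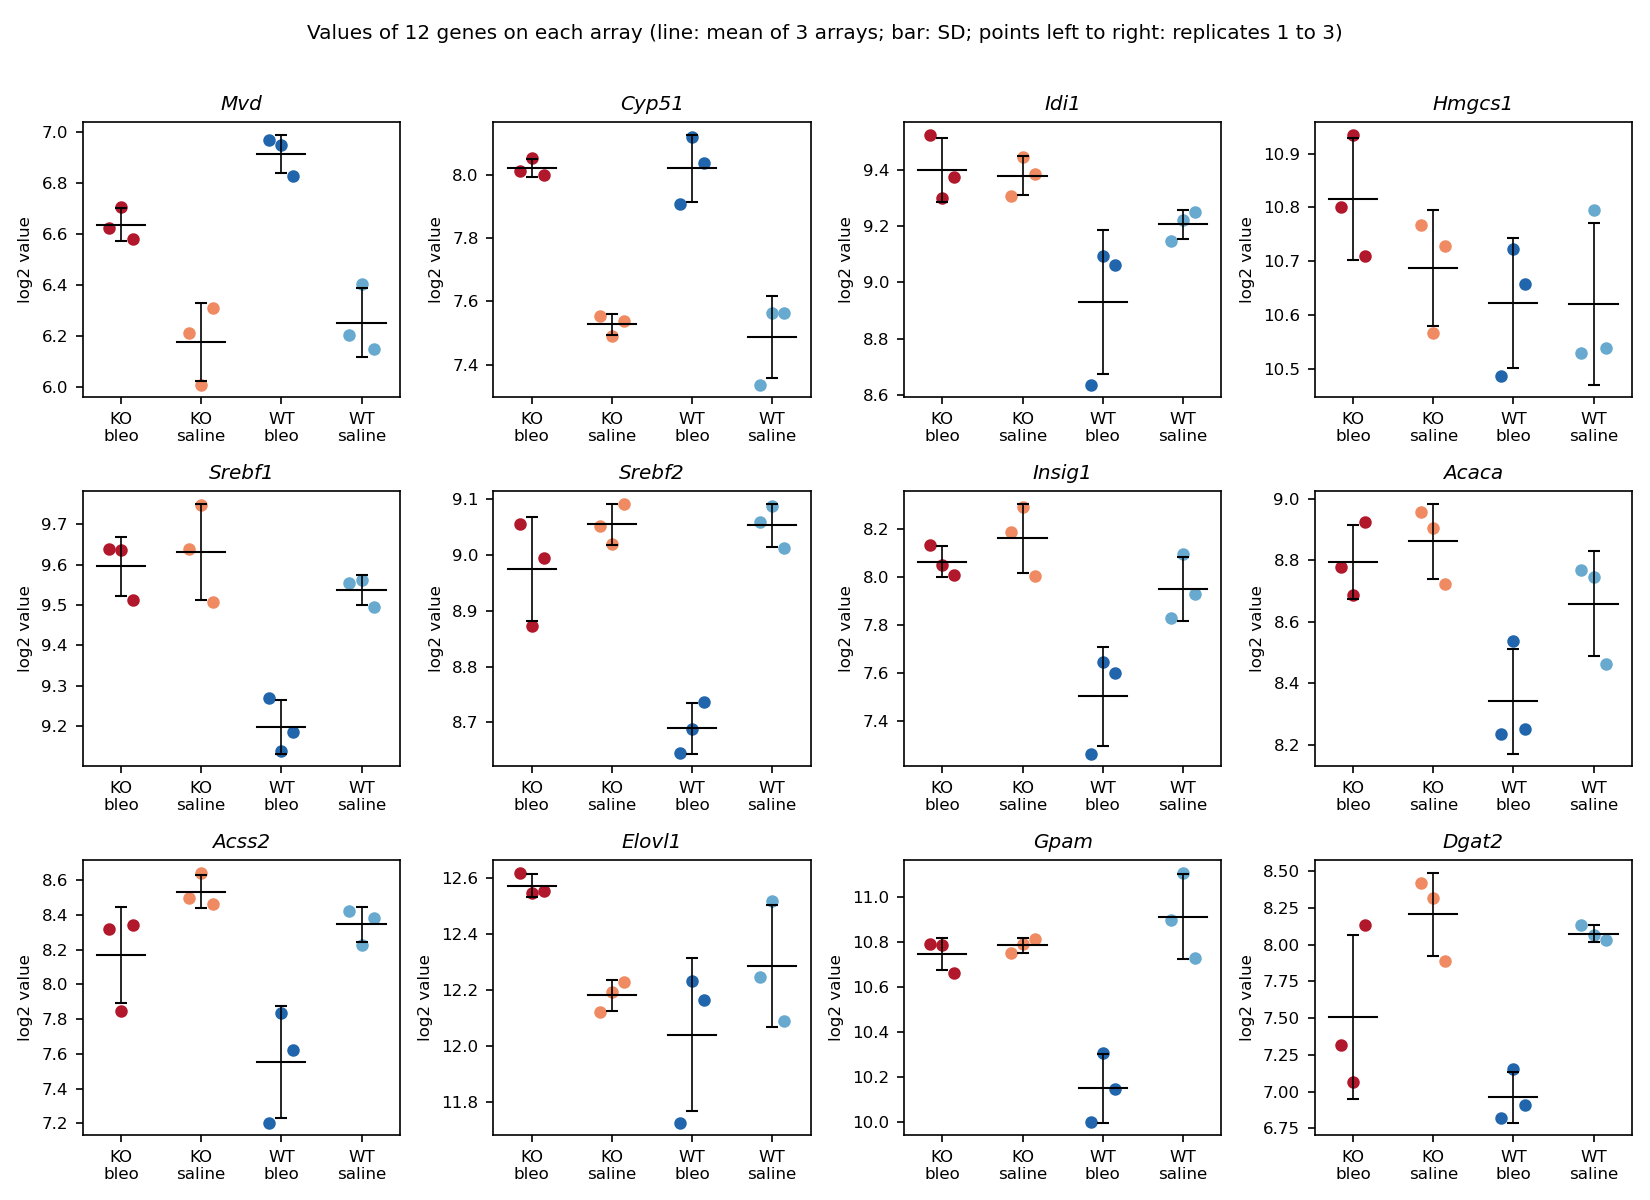
Log2 signal on each of the 12 arrays for 12 of the genes, with a point for each array, a line at the group mean and a bar for the SD, groups from left to right being knockout bleomycin, knockout saline, wild type bleomycin and wild type saline. Gpam, Srebf1, Srebf2 and Insig1 are low in the wild type bleomycin arrays alone among the 4 groups, while Cyp51 and Mvd are high in both bleomycin groups.

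On the probe sets used, the difference between the bleomycin responses, knockout minus wild type, passed for 1 of the 35 genes. The share called higher was 2.86%, against 2.03% of all genes, and the share called lower was 0%, against 3% of all genes. That gene was Gpam, whose response was higher in knockout by 0.72 ± 0.14 (interval 0.41 to 1.04, adjusted p = 0.0153). Elovl1, which elongates very long chains, had a difference of 0.64 (interval 0.24 to 1.03) that did not pass (adjusted p = 0.0645). The differences for Srebf1 (0.30, adjusted p = 0.139), Srebf2 (0.28, adjusted p = 0.123) and Insig1 (0.35, adjusted p = 0.219) did not pass, so the falls seen in wild type were not shown to depend on genotype for these regulators. For Cyp51 the difference was -0.04 on the probe set used (interval -0.29 to 0.21, adjusted p = 0.885). A dimmer Cyp51 set (mean 5.73) changed by 0.31 in knockout and by 0.82 in wild type. Its difference of -0.51 did not pass (limma adjusted p = 0.0986 over all probe sets). The interval for Mvd was -0.49 to 0.09. Without the first wild type bleomycin array the Gpam difference was 0.65 (adjusted p = 0.0291), and without the first knockout bleomycin array it was 0.70 (adjusted p = 0.0428). Gpam has a second, dimmer probe set with a mean of 6.45, and with the mean of both sets the difference was 0.25 (adjusted p = 0.568, against 0.0035 at the lowest over the alternatives).

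After bleomycin, knockout lungs had more of 9 of the 35 genes than wild type lungs and less of none. The share called higher was 25.7%, against 7.52% of all genes, and the share called lower was 0%, against 7.89% of all genes. The median difference was 0.21 over the 35 genes and 0.03 over all genes, and 29 of the 35 differences were above 0. The wild type bleomycin arrays enter this comparison and the wild type response alike, so a low gene in them shows in both.

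**Figure D4:**
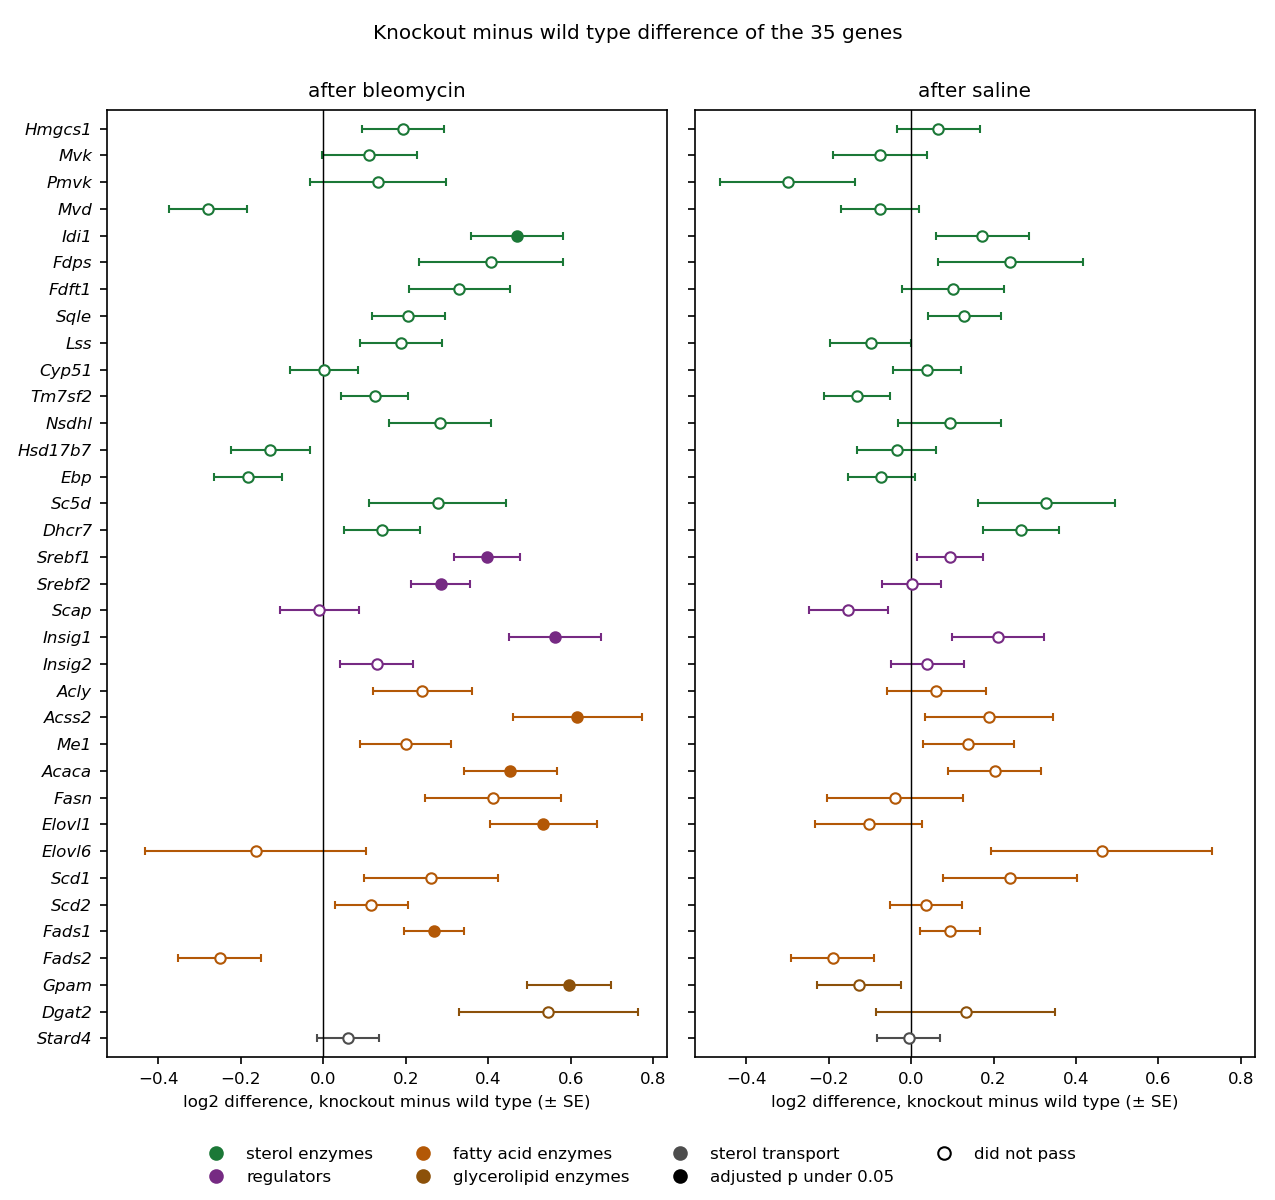
Log2 difference (knockout minus wild type, ± SE) of each of the 35 genes after bleomycin, on the left, and after saline, on the right, with filled points for an adjusted p under 0.05. After bleomycin Gpam, Insig1, Srebf1, Idi1, Elovl1, Acaca, Srebf2, Acss2 and Fads1 are filled and positive, and after saline no point is filled.

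The regulators accounted for 3 of these 9. Insig1 differed by 0.56 ± 0.11 (1.48-fold, adjusted p = 0.0049), Srebf1 by 0.40 ± 0.08 (1.32-fold, adjusted p = 0.00501) and Srebf2 by 0.29 ± 0.07 (1.22-fold, adjusted p = 0.0167). In the values given above, every knockout bleomycin array exceeded every wild type bleomycin array for all 3 genes. Gpam differed by 0.60 ± 0.10 (1.51-fold, adjusted p = 0.00199), with 10.66 to 10.79 in knockout bleomycin lungs and 9.999 to 10.30 in wild type bleomycin lungs.

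Of the fatty acid enzymes, Acss2, Elovl1, Acaca and Fads1 were higher in knockout. Acss2 differed by 0.62 ± 0.16 (1.53-fold, adjusted p = 0.0177). Elovl1 read 12.62, 12.55 and 12.55 in knockout bleomycin lungs, against 11.73, 12.23 and 12.17 in wild type bleomycin lungs (0.53, adjusted p = 0.0146). The first wild type array was the lowest and the groups did not overlap. Acaca read 8.78, 8.69 and 8.92 in knockout bleomycin lungs, against 8.24, 8.54 and 8.25 in wild type bleomycin lungs (0.45, adjusted p = 0.0163). Fads1, a desaturase of polyunsaturated fatty acids, read 9.90, 9.75 and 9.79 in knockout bleomycin lungs, against 9.63, 9.53 and 9.47 in wild type bleomycin lungs (0.27, adjusted p = 0.025). Both genes were separated on all arrays. Fasn read 11.14, 10.94 and 11.29 in knockout bleomycin lungs and did not pass against wild type bleomycin (0.41, interval 0.05 to 0.77, adjusted p = 0.116).

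Idi1, which isomerises isopentenyl diphosphate, was the 1 sterol enzyme of 16 that passed on the probe sets used. It read 9.53, 9.30 and 9.37 in knockout bleomycin lungs, against 8.64, 9.09 and 9.06 in wild type bleomycin lungs, with no overlap (0.47 ± 0.11, 1.38-fold, adjusted p = 0.0132). Mvd had the opposite sign, at -0.28, with every knockout bleomycin array below every wild type bleomycin array, and did not pass (adjusted p = 0.0651). Cyp51 differed by 0.00 (interval -0.18 to 0.18). Fdft1, the squalene synthase, differed by 0.33 and Fdps, the farnesyl diphosphate synthase, by 0.41, and neither passed (adjusted p = 0.0928 and 0.145). Without the second wild type saline array, which alters only the shared spread here, Fdft1 passed as higher and Mvd as lower. Other probe sets read differently in this comparison. Another set of Fdft1 (mean 8.77) differed by 0.34 and another of Sc5d (mean 7.49) by 0.58. Both passed (limma adjusted p = 0.0122 and 0.0166 over all probe sets). The second set of Idi1 (mean 6.98) differed by 0.23 and did not pass (adjusted p = 0.45).

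Single arrays carried part of this comparison. Without the first wild type bleomycin array, 6 of the 9 calls were left, since Srebf2 (adjusted p = 0.0579), Acss2 (0.0683) and Acaca (0.0643) no longer passed. Without the first knockout bleomycin array, 4 genes passed, and Idi1 (0.063), Srebf2 (0.0774), Acss2 (0.0778), Elovl1 (0.0556) and Fads1 (0.106) did not. Higher calls over all genes fell from 1369 to 835 without the first wild type and to 738 without the first knockout bleomycin array. Acss2 (0.0668) and Acaca (0.0619) also failed without the third knockout bleomycin array, Acaca (0.0569) and Fads1 (0.0887) without the third wild type bleomycin array, and Fads1 (0.0608) without the second. Over all alternatives the adjusted p reached 0.0801 for Idi1, 0.0778 for Srebf2 and Acss2, 0.13 for Acaca, 0.0556 for Elovl1 and 0.513 for Fads1, and was 0.00681 or more for all of them. Srebf1 and Insig1 passed under every one of the 20 alternatives, and Gpam under all but the mean of its probe sets (adjusted p = 0.111, lowest 0.000959).

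Alveolar type 2 markers were also higher in knockout after bleomycin. Of 9 measured, 8 passed (88.9%, against 7.52% higher of all genes), and none was lower. Their sums were 71939 to 77058 in knockout bleomycin lungs and 43857 to 62729.7 in wild type bleomycin lungs. Without the first wild type bleomycin array 5 of the 9 passed, and without the first knockout bleomycin array 1 did. Macrophage markers went the other way, with 6 of 10 lower in knockout bleomycin lungs (60%, against 7.89% of all genes). Their sums were 24171 to 27420.4 there, against 29043 to 30397 in wild type bleomycin lungs. The part of either cell type in the difference of the lipid genes was not tested.

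After saline, none of the 35 genes passed between knockout and wild type lungs with limma, when 0.297% of all genes were higher and 0.192% lower. An unadjusted limma p under 0.05 was found for 1 of the 35 and for 1846 of all 18194 genes. The median difference was 0.06 over the 35 genes and -0.02 over all genes. That 1 gene was Dhcr7, with 7.38, 7.28 and 7.18 in knockout saline lungs, against 7.01, 7.05 and 6.98 in wild type saline lungs (0.27, interval 0.07 to 0.47, adjusted p = 0.311). Every knockout saline array of Dhcr7 was higher. For Gpam the interval was -0.35 to 0.09, for Srebf1 -0.08 to 0.27 and for Cyp51 -0.14 to 0.22.

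Set side by side over the 4 groups, the sterol and fatty acid branches kept different orders. As a mean over its enzymes, each taken relative to its own mean over the 12 arrays, the sterol branch stood at 0.14 ± 0.09 in knockout bleomycin lungs, -0.04 ± 0.02 in knockout saline lungs, -0.01 ± 0.10 in wild type bleomycin lungs and -0.08 ± 0.08 in wild type saline lungs (SD, n = 3). Fatty acid enzymes stood at 0.11 ± 0.11 in knockout bleomycin lungs, 0.06 ± 0.06 in knockout saline lungs, -0.13 ± 0.17 in wild type bleomycin lungs and -0.04 ± 0.09 in wild type saline lungs. After bleomycin the 2 branches therefore had mean changes of opposite sign in wild type, each within about the spread of its arrays. The regulators stood at 0.07 ± 0.06 in knockout bleomycin lungs, 0.08 ± 0.05 in knockout saline lungs, -0.20 ± 0.05 in wild type bleomycin lungs and 0.05 ± 0.06 in wild type saline lungs, with every wild type bleomycin array (-0.26 to -0.17) below every other array. The sterol minus fatty acid gap per array was 0.02 ± 0.14 in knockout bleomycin lungs, -0.10 ± 0.07 in knockout saline lungs, 0.12 ± 0.08 in wild type bleomycin lungs and -0.04 ± 0.16 in wild type saline lungs, with no test because the genes were chosen with results known. In the first wild type bleomycin array both branches were low, at -0.13 for sterol and -0.32 for fatty acid enzymes, against 0.05 and 0.06 for sterol and 0.02 and -0.09 for fatty acid enzymes on the other wild type bleomycin arrays. For fatty acid enzymes those other arrays lay within the range of the wild type saline arrays (-0.14 to 0.05). The negative mean change of that branch in wild type therefore rested on the first bleomycin array. The median change of its enzymes in wild type was -0.18 with all arrays and -0.09 without that array.

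**Figure D5:**
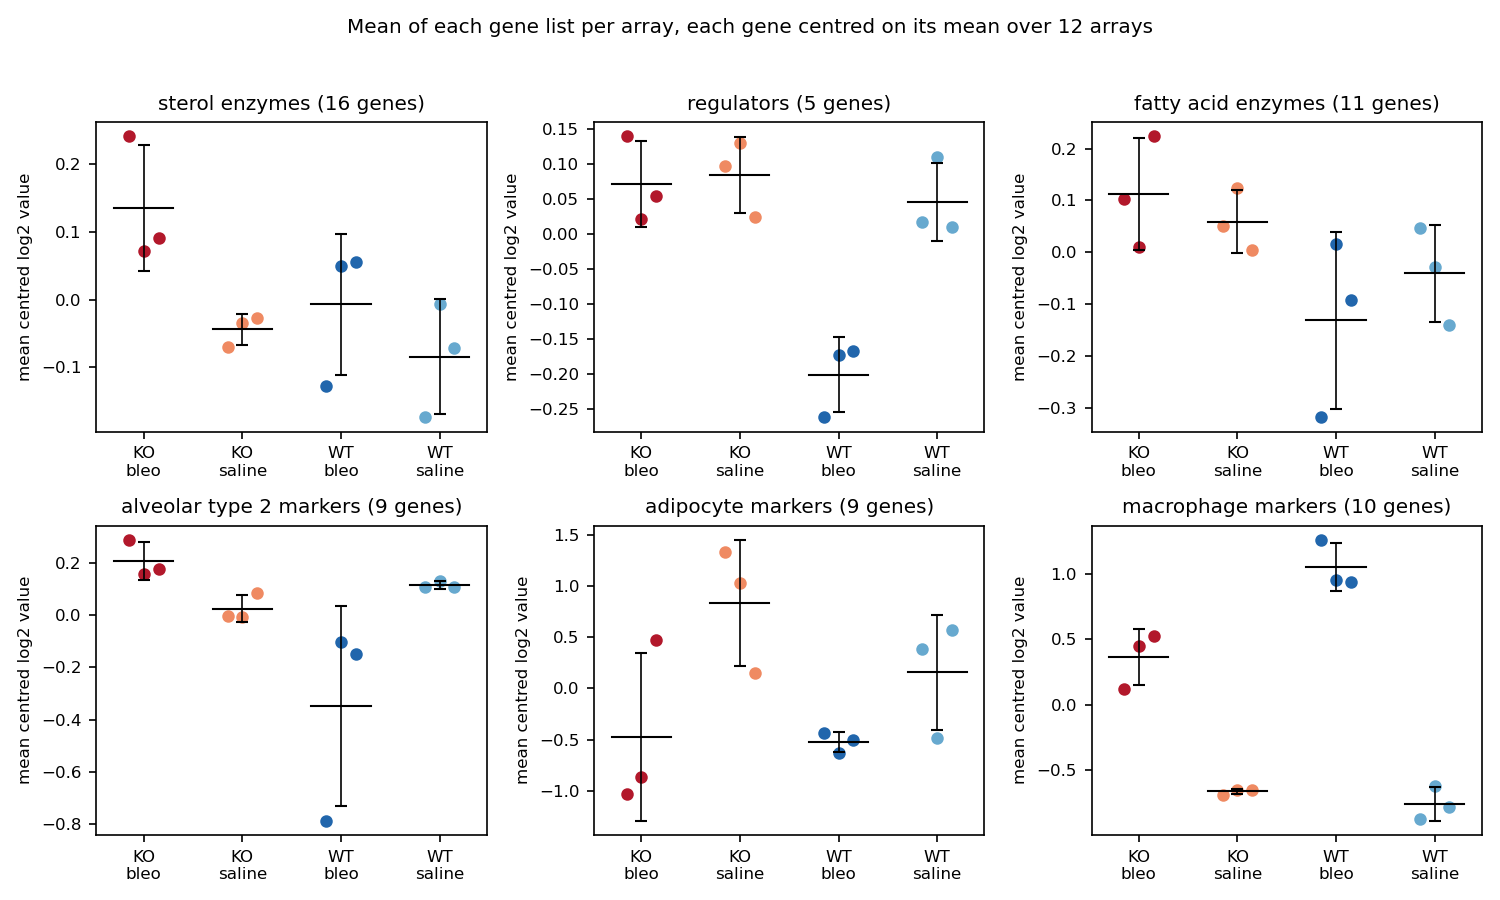
Mean log2 value on each array of the sterol enzymes, regulators and fatty acid enzymes (top) and of the alveolar type 2, adipocyte and macrophage markers (bottom), each gene centred on its mean over the 12 arrays, with groups from knockout bleomycin to wild type saline, the group mean as a line and the SD as a bar. The regulators of the 3 wild type bleomycin arrays lie between -0.26 and -0.17, below all other arrays, while the sterol and fatty acid enzymes overlap between groups.

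Other genes of lipid metabolism were read from lists beside the 35. Their counts stand beside 1.98% higher and 1.29% lower of all genes in knockout, and 13.3% higher and 14.4% lower in wild type; the further sterol and fatty acid genes were near these shares. Among 13 measured further sterol genes, none passed in knockout after bleomycin (3 at an unadjusted limma p under 0.05), and 2 rose and 1 fell in wild type. Scarb1, the receptor that takes up cholesterol from high-density lipoprotein, had 0.38 in knockout (adjusted p = 0.066) and rose by 1.24 ± 0.10 in wild type (adjusted p = 3.56e-06), and the knockout response was lower by 0.85 ± 0.15 (adjusted p = 0.00757). Among 26 further fatty acid and glycerolipid genes, 1 rose in knockout, Hacd1, and 4 rose and 5 fell in wild type. Mid1ip1, which activates acetyl-CoA carboxylase, changed by -0.02 in knockout (adjusted p = 0.95) and fell by 0.70 ± 0.11 in wild type (adjusted p = 0.000547), and its response was higher by 0.68 ± 0.16 in knockout (adjusted p = 0.0324). Without the first wild type bleomycin array or the first knockout bleomycin array, 0 of these 26 genes differed in response.

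Genes of sterol export and their oxysterol-sensing control mostly rose where they passed. Of 10 measured, 3 rose in knockout (30%, against 1.98% of all genes) and none fell, and 5 rose in wild type (50%, against 13.3% of all genes) and 1 fell. Ch25h, which makes 25-hydroxycholesterol, a sterol that suppresses SREBP processing, changed by 0.26 in knockout (adjusted p = 0.659) and rose by 2.26 ± 0.26 in wild type (4.79-fold, adjusted p = 3.86e-05), and the difference of -2.00 ± 0.37 passed (adjusted p = 0.00991). 2 of the 10 genes had a lower response in knockout (20%, against 3% of all genes), and 1 did when the first bleomycin array of either genotype was left out. Apoe, the lipoprotein that carries exported cholesterol, rose by 0.73 in knockout (adjusted p = 0.00628) and by 0.93 in wild type (adjusted p = 8.92e-05). Lipa, the lysosomal cholesterol ester hydrolase, rose by 0.49 in knockout (adjusted p = 0.0411) and by 1.01 in wild type (adjusted p = 4.6e-05). Macrophages express these 3 genes as well, and the marker sums above rose with them; their part was not tested.

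Surfactant genes that passed in wild type lungs were lower after bleomycin. Of 19 measured, 0 passed after bleomycin in knockout, where the median was 0.10 and 4 had an unadjusted limma p under 0.05, while 8 fell and none rose in wild type, with a median of -0.34. Over all genes, 1.29% were lower in knockout and 14.4% in wild type. Leaving out the first wild type bleomycin array, 3 passed as higher in knockout, and in wild type 6 fell and 1 rose, with a median of -0.22. Without the first knockout bleomycin array the knockout median was 0.042. Pla2g1b, a secreted phospholipase, changed by -0.03 in knockout (adjusted p = 0.977) and fell by 1.71 ± 0.27 in wild type (adjusted p = 0.000495). Abca3, which pumps phospholipid into the lamellar bodies of type 2 cells, had 0.35 in knockout (adjusted p = 0.234) and fell by 0.54 ± 0.15 in wild type (adjusted p = 0.0159), and the difference of 0.88 ± 0.21 passed (adjusted p = 0.0324). 4 of the 19 genes had a higher response in knockout (21.1%, against 2.03% of all genes). Without the first knockout bleomycin array 0 did, and higher responses over all genes fell from 369 to 112. After bleomycin 10 of the 19 were higher in knockout than in wild type lungs (52.6%, against 7.52% of all genes). The surfactant list shares genes with the alveolar type 2 markers above, Abca3 among them, so the counts of both lists are not separate results. None of the 19 was lower, against 7.89% of all genes. Without the first wild type bleomycin array 7 were higher, and without the first knockout bleomycin array 3 were.

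The arrays carry 83 probe sets for the 35 genes, with more than 1 for 26 of them, and these did not always agree. Lss, the lanosterol synthase, changed by -0.21 in wild type on the set used but by -1.01 on another of nearly the same signal (mean 6.53, adjusted p = 0.000117 over all probe sets), which also differed by 0.996 between knockout and wild type after bleomycin (adjusted p = 0.000441). On that other set the response to bleomycin was higher in knockout by 0.80, and the difference passed (limma adjusted p = 0.0337 over all probe sets). Sc5d, a sterol desaturase, changed by 0.07 in wild type on the set used and by -0.71 on another (mean 7.49, adjusted p = 0.00239). The second sets of Gpam (0.17) and Srebf2 (0.12) did not show the fall of the brighter ones. Acss2 fell on both of its brighter sets. In wild type Scd2 changed by -0.02 on the set used and by 0.64 and 1.05 on its others. Neither of these passed (limma adjusted p = 0.0833 and 0.133 over all probe sets). Hmgcs1 changed by 0.00 on the set used and by 0.14, 0.16 and 0.41 on sets with means of 10.45, 10.23 and 8.83. These did not pass either (adjusted p = 0.286, 0.279 and 0.0823). By Affymetrix naming, sets that end in _x_at or _s_at can also bind related transcripts. The sets read for Hsd17b7, Fdft1 and Elovl1 are of the first kind, and those for Mvd and Lss of the second. Which probe set measures the main transcript was not tested.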

How the data were processed

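Total RNA of whole lung was converted to biotinylated cRNA for Affymetrix arrays, 1 for each of 12 samples. The authors deposited 1 log2 value per probe set and array (45101 probe sets); per the submitters' processing notes RMA, affy and limma were used, and the genome build was not given in the sources used here. Groups came from the sample labels.

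The annotation pairs 34958 probe sets with 1 gene, 932 with several and 9211 with none, and 34754 of the first matched the mouse gene table by Entrez identifier. Each of 18194 genes was represented by its brightest probe set, averaged over the 12 arrays. All 12 arrays entered 1 limma fit (limma 3.58.1, R 4.3.3) with 1 mean per group and eBayes without trend, leaving 8 residual and 4.86 prior degrees of freedom. P-values were adjusted by Benjamini-Hochberg over all genes tested and called under 0.05, and intervals are 95%. The procedure was tested on simulated data.

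The members and gene lists were chosen with earlier results of these data known, so no list was tested. All members are accounted for; array values are given for members called in a comparison (up to 4 per branch by smallest p) and for the entry points of each branch, and up to 3 genes by smallest p from other lists. Array values of Me1, Fads2, Fdft1, Fdps and Elovl6, or their changes, were added after their values were seen. Some genes of the other lists were not analysed here. Alternatives were a filter at a mean of 5, eBayes with robust and trend options, array medians subtracted, a second quantile normalization, averaged probe sets, only the groups compared, array weights (statmod 1.5.0), a replicate block and each array left out. Promoter windows came from RefSeq (GRCm38.p6). Figures were drawn with matplotlib 3.10.9.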

Additional observations from a re-analysis of the deposited data

Results flagged for a closer look

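The response of Gpam to bleomycin differed between the genotypes by a test of the difference itself. Knockout minus wild type was 0.72 on the log2 scale (limma adjusted p = 0.0153), from a change of -0.04 in knockout lungs and -0.76 in wild type lungs. The sign was the same under all 20 alternatives, and the call was lost under 1, the mean of its 2 probe sets.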

How the results depend on the processing

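The 24 calls of single members were repeated under 20 alternatives. Of these 480 repeats 434 kept the call, 46 lost it and 0 changed sign. Mvd, Cyp51, Srebf1, Insig1, Acss2 and Dgat2 kept their calls in wild type under every alternative, as did Srebf1 and Insig1 between genotypes after bleomycin. With a gene's probe sets averaged, 8 members instead of 5 were higher in wild type, 0 instead of 1 differed in response, and 5 instead of 9 were higher in knockout after bleomycin. Lss, Sc5d and Fads1 were then called lower in wild type, and Srebf2 and Gpam no longer were. With only the groups compared in the fit, 3 were higher in wild type, 5 in knockout after bleomycin, and 37 of all genes instead of 89 differed after saline. With array weights, 5 members instead of 3 were higher after bleomycin in knockout, 2 differed in response and 2, Dhcr7 and Insig1, were higher in knockout after saline; all genes called became 1286 instead of 594 for knockout, 1888 instead of 914 for the difference and 1105 for saline. With trend and robust eBayes 2 members differed in response. The cause of these shifts was not tested.

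Leaving out each array in turn gave 2 to 6 members higher in wild type, 1 to 5 higher and 0 to 1 lower in knockout, 1 to 2 higher in the difference, and 4 to 11 higher and 0 to 1 lower in knockout against wild type after bleomycin. Over all genes these gave 211 to 796 calls in knockout, 380 to 1052 for the difference, 1653 to 3138 between genotypes after bleomycin and 24 to 112 after saline. The median difference in response of the sterol enzymes ranged from 0.034 to 0.20, and the fatty acid median between genotypes after bleomycin from 0.12 to 0.30. The lowest value of each came without the first wild type bleomycin array. Subtracting array medians moved the share of higher calls from 60.6% to 75.5% in knockout, from 40.4% to 50.7% for the difference and from 60.7% to 48.1% after saline.

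Same-numbered samples of different groups did not deviate together (correlations of -0.30 to 0.20 over 18 pairs), so the numbers were not used to pair samples. A replicate block gave 601 calls instead of 914 for the difference and ended the call of Tm7sf2 in knockout.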
